A study of Mus musculus with 8 samples.

Results

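Muscle contraction can spend ATP faster than mitochondria remake it, and muscle fibres buffer this with reactions that pass high-energy phosphate between adenine nucleotides and creatine. The 9 genes described here take part in those reactions or in the supply and turnover of creatine and adenine nucleotides. Their RNA was measured in the quadriceps femoris (QF), a large thigh muscle, of mice with Grpel1 deleted in skeletal muscle and of floxed controls. GRPEL1 is a co-chaperone of the mitochondrial HSP70 protein import motor. By the paper's immunoblot, GRPEL1 protein in QF of the knockouts was reduced, not absent. The 9 genes were chosen by name as creatine kinases (Ckm, Ckb and Ckmt2), the creatine transporter (Slc6a8), an enzyme of creatine synthesis (Gamt), an adenylate kinase (Ak1), AMP deaminases (Ampd1 and Ampd3) and the muscle adenylosuccinate synthase (Adssl1). All 9 are among the 14012 genes of the count table. At an adjusted p under 0.01 from edgeR, 6 of them were lower in the libraries labelled knockout (beside 21.1% of all genes), 2 were higher (beside 23.6%) and 1, Gamt, did not pass. The muscle-type forms Ckm, Ckmt2, Ak1, Ampd1 and Adssl1 fell between 2.22-fold and 4.84-fold, whereas Ckb and Ampd3, the forms of other tissues, rose 2.15-fold and 3.52-fold. With libraries scaled by their totals alone, the fitted falls were smaller, 1.40-fold (Adssl1) to 3.05-fold (Ckmt2), and the rises larger, 3.42-fold and 5.56-fold. The sixth lower gene, Slc6a8, changed sign with that scaling.

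RNA came from 4 Grpel1skm-/- mice and 4 Grpel1flox/flox controls, 1 library each. In the former, Cre-ERT2 made under the human skeletal muscle α-actin (HSA) promoter and switched on by intraperitoneal tamoxifen deletes floxed Grpel1, so cells other than muscle fibres should keep the gene. The ES cells carrying the targeted allele had been injected into C57BL/6NCrl blastocysts. The age of these mice at sampling is not given in the labels, which name no treatment, and whether the control mice received tamoxifen is not stated for these libraries. The paper's reporting summary lists male mice. Its methods give an age at tamoxifen injection but none at RNA sampling. The paper calls floxed littermates untreated where it describes body weight, and also shows a floxed group given tamoxifen. If the controls here were untreated, an effect of tamoxifen and one of the deletion cannot be told apart. Grpel1 itself stood at 69.6, 71.2, 68.8 and 64.1 CPM in controls 1 to 4 and at 69.1, 71.9, 60.3 and 59.9 CPM in knockouts 1 to 4. CPM is the count scaled to a library of fixed size after edgeR's TMM factor for composition. Because the whole-gene count of Grpel1 overlapped between the groups (log2 fold change -0.066, SE 0.078, adjusted p = 0.487), it does not check the labels, and every direction below rests on them.

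The libraries held from 16017565 to 20361144 counts. TMM factors lay between 0.747 and 0.844 for controls and between 1.19 and 1.33 for knockouts, so the scaling itself separated the groups. Of the tissue's markers, 10 of 12 fast myofibre genes were lower and 1 was higher, and their summed level was 257046 to 337334 CPM in the controls against 89074 to 126168 CPM in the knockouts. By contrast, 6 of 8 slow myofibre genes were higher (summed level 133 to 232 against 424 to 1694 CPM). Among other cell types, 6 of 8 endothelial genes were lower with TMM scaling (322 to 477 against 239 to 270 CPM). So were 5 of 8 fibroblast genes (1790 to 2643 against 707 to 1085 CPM). Of all genes, 21.1% were lower and 23.6% higher. The endothelial list had a median log2 fold change of -0.67 and the fibroblast list one of -0.84. Scaling by library totals alone raised the all-gene median from 0.065 to 0.73. The marker genes were not tested with that scaling, so whether their falls hold with it is not known. The satellite cell sums were 44.8 to 63.6 against 53.2 to 69.1 CPM, with 2 of 6 genes higher and 2 lower, and those of smooth muscle and pericytes 474 to 757 against 451 to 507 CPM, with 3 of 8 lower. Macrophage sums were 61.2 to 161 against 128 to 243 CPM, with 1 of 8 genes higher. None of 8 adipocyte, 9 Schwann cell or 5 measured red blood cell genes passed the test, at sums of 831 to 4996 against 1202 to 3738 CPM, 76.9 to 199 against 104 to 163 CPM and 41.1 to 102 against 8.61 to 96.7 CPM. No gene of these lists was at 0 in all 4 libraries of a group. The part of fibre type and of these other cells in the results below was not tested, except for the adipocyte genes, which entered a fit as a covariate. In whole muscle, fewer cells of a type and less RNA per cell cannot be told apart.

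Creatine kinases move phosphate between ATP and creatine. CKMT2 sits in the mitochondrial intermembrane space and charges creatine where ATP is made, and CKM recharges ADP at the myofibrils, while CKB is the cytosolic form of brain and many other tissues. Adenylate kinase turns 2 molecules of ADP into ATP and AMP. AMP deaminase then converts AMP to IMP, and adenylosuccinate synthase with adenylosuccinate lyase turns IMP back into AMP, which closes the purine nucleotide cycle. Creatine itself is made from arginine and glycine by GATM and GAMT, chiefly outside muscle, and enters the fibre through SLC6A8.

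To show the regulatory sequence next to genes that moved in opposite directions, the 250 bases upstream of the annotated start are given. They are shown for 3 muscle-type genes that fell and for Ckb, which rose. These 3 are the lower genes found to hold the motif CAGCTG, so a contrast with Ckb in that motif comes from the choice. The sequences are from RefSeq on GRCm38.p6, 5′ to 3′ on the strand of the gene. Capitals mark the E-box CAGCTG, a form of the motif CANNTG that myogenic bHLH factors bind, and the TATA motif TATAAA. The windows are chr7:19410844-19411093 (plus strand) for Ckm, chr13:91876886-91877135 (minus strand) for Ckmt2, chr2:32621508-32621757 (plus strand) for the first of 4 starts of Ak1 and chr12:111672339-111672588 (minus strand) for Ckb.
Ckm: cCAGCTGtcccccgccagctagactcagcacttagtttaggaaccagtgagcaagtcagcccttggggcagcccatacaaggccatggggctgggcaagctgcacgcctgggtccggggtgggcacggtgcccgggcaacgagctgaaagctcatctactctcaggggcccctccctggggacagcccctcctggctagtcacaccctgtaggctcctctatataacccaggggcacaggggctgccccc
Ckmt2: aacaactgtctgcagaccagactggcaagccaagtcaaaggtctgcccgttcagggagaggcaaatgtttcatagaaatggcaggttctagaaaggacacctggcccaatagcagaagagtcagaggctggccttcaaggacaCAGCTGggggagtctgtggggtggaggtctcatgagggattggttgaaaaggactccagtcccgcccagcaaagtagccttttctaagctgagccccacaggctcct
Ak1: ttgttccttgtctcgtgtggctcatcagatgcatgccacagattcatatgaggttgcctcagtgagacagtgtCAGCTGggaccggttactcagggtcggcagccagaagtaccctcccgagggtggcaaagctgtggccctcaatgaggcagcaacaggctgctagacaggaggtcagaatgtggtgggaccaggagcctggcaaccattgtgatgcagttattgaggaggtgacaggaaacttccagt
Ckb: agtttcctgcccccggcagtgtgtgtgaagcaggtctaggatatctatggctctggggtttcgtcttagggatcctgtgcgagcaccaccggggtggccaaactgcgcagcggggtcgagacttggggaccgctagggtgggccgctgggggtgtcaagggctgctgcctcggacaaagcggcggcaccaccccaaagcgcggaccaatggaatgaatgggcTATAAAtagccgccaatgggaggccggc
CAGCTG begins 249 bases upstream of the start of Ckm, 107 upstream of that of Ckmt2 and 177 upstream of that of Ak1. The Ckb window has no CANNTG on either strand within 300 bases, and carries TATAAA from position -28, inside overlapping matches to a MEF2-like motif (CTANNNNTA). The 300-base windows searched run from 250 bases before to 50 after the start, and both strands were read. Windows were found for 7 of the 9 genes, 12 in all, and Slc6a8 and Ampd1 were not matched. CAGCTG stands in at least 1 window of Ckm, Ckmt2 and Ak1, and in none of Ckb, Ampd3, Adssl1 or Gamt, beside 16.3% of all 32851 windows. For comparison, CANNTG occurs in 72.3% of all windows, CTANNNNTA in 21% and TATAAA in 13.6%. No window of the 7 genes holds the ATF4-C/EBP composite TGATGNAAN (3.95% of all windows), the estrogen-related receptor motif TCAAGGTCA (0.423%) or the FoxO motif TGTTTAC (3.65%). These are matches of letters and not sites shown to be bound.

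Ckm (Entrez Gene 12715, chr7:19411094-19421583, GRCm38) was the most abundant of the 9 genes. It stood at 22580, 19396, 23806 and 18539 CPM in controls 1 to 4 and at 6634, 4783, 8066 and 5572 CPM in knockouts 1 to 4. The highest knockout library thus lay well under the lowest control. The mean was 21080 ± 2515 against 6264 ± 1421 CPM (SD, n = 4 each) and the log2 fold change -1.75 (SE 0.18, adjusted p = 2.42e-05, Benjamini-Hochberg over all genes after the quasi-likelihood test of edgeR, as for every single gene below). Its share of a library, which uses no scaling factor, was 1.67% ± 0.112 for controls and 0.784% ± 0.138 for knockouts (two-sided exact permutation p = 0.0286, which 4 against 4 libraries cannot go under). By raw counts it ranked 6 to 9 among all genes in control libraries and 8 to 12 in knockout ones. The gene overlaps A930016O22Rik on the other strand, which had 6342 counts over the 8 libraries, and 8.26% of the 75-base windows of its transcripts are shared with that gene.

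Ckmt2 (Entrez Gene 76722, chr13:91853387-91876885), the sarcomeric mitochondrial creatine kinase, changed most on the log2 scale among the 9 genes. Its values were 1308, 1509, 1218 and 1213 CPM in the controls against 242, 249, 309 and 285 CPM in the knockouts, with no overlap and little spread among the knockouts. The mean fell from 1312 ± 138 to 271 ± 31 CPM, 4.84-fold (log2 fold change -2.27, SE 0.11, adjusted p = 3.17e-07).

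Ckb (Entrez Gene 12709, chr12:111669355-111672338) went the other way from a low level. It had 67, 114, 78 and 134 counts in control libraries and 300, 344, 217 and 522 in knockout libraries, which is 5.41, 7.46, 5.58 and 8.44 CPM against 12.5, 15.8, 8.96 and 20.7 CPM. The groups did not overlap, but knockout 3 lay close to control 4. The mean was 6.73 ± 1.47 against 14.5 ± 5.01 CPM (log2 fold change 1.10, SE 0.25, adjusted p = 0.00387). This call was lost under more alternatives than those of the other 7 genes. Without control 1, control 3, knockout 2 or knockout 4 the adjusted p was 0.0121, 0.0130, 0.0124 and 0.0109, and with the mean of the adipocyte genes as a covariate it was 0.0161 (log2 fold change 0.92). Of the 75-base windows of its transcripts, 5.82% are shared with Gm12892. Ckb is also made by glia and smooth muscle, and the part of these cells in its rise was not tested. The summed Schwann cell levels were 163, 130, 104 and 126 CPM in knockouts 1 to 4. Their summed smooth muscle and pericyte levels were 451, 480, 470 and 507 CPM.

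Slc6a8 (Entrez Gene 102857, chrX:73673133-73682502), which carries creatine across the plasma membrane, showed the smallest change that passed the test. It was at 139, 179, 185 and 173 CPM in the controls against 127, 112, 129 and 124 CPM in the knockouts. Control 1 was the lowest control and came near knockout 3, the highest knockout, without overlapping it. The mean was 169 ± 20.7 against 123 ± 7.45 CPM, a log2 fold change of -0.46 (SE 0.096, adjusted p = 0.00216) that turned to 0.20 (adjusted p = 0.0785) when libraries were scaled by their totals alone. That scaling moved the median of all genes from 0.065 to 0.73, so the value of Slc6a8 lay under the median of all genes in both scalings.

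Gamt (Entrez Gene 14431, chr10:80258151-80260968), whose enzyme methylates guanidinoacetate to creatine, did not pass the test. Its values were 21, 27, 29.8 and 21.9 CPM in the controls against 28, 29.8, 24.4 and 40.0 CPM in the knockouts, and the groups overlapped. The log2 fold change was 0.29 with a 95% interval of -0.068 to 0.66 (adjusted p = 0.144), an interval that holds 0. With library totals alone it was 0.97 (adjusted p = 0.000645).

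**Figure D1:**
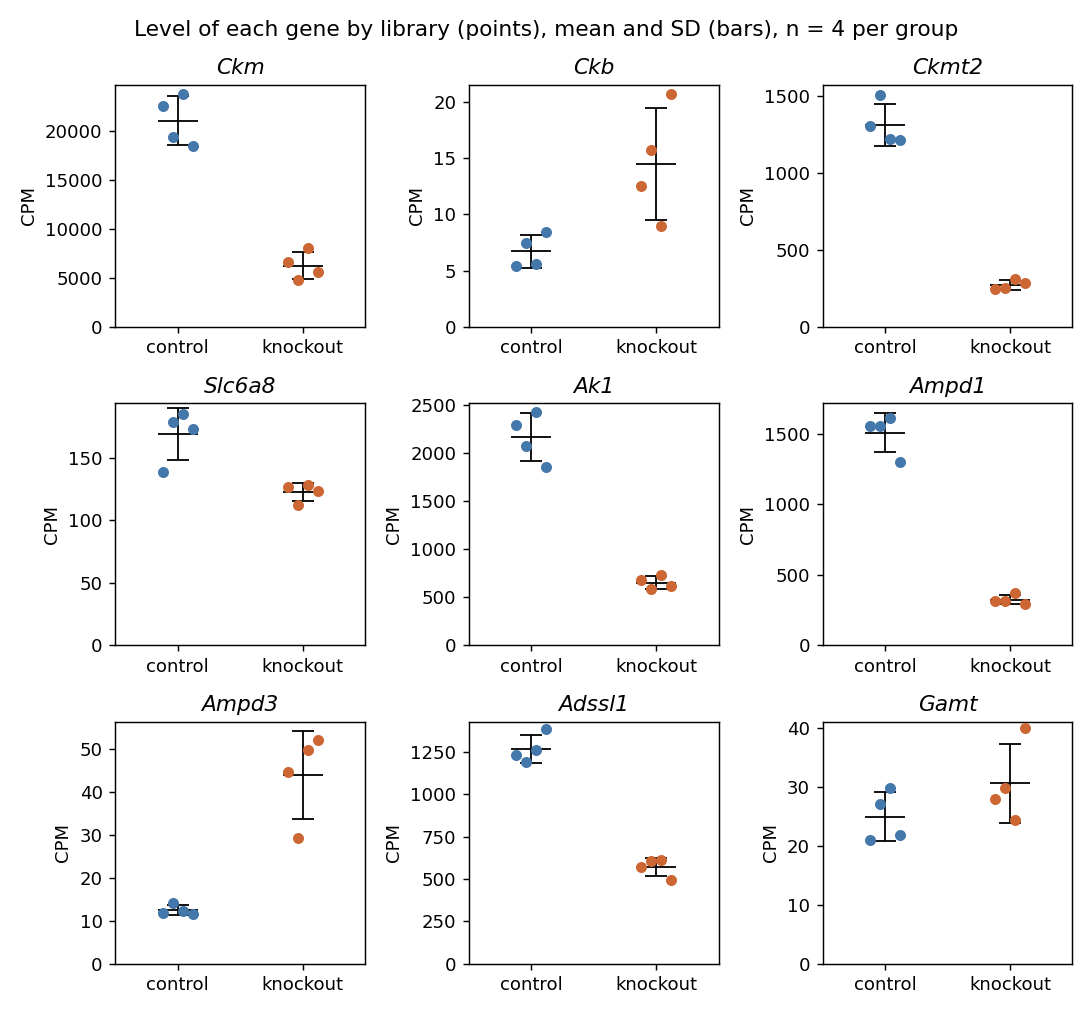
Level of the 9 genes in CPM on TMM-scaled libraries, 1 point per library, with the mean and SD of the 4 libraries per group as bars and each axis starting at 0. With this scaling the groups are apart in 8 of the 9 panels, with Ckb and Ampd3 higher in the knockouts, and they overlap for Gamt.

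Ak1 (Entrez Gene 11636, chr2:32621758-32635058), the cytosolic adenylate kinase of muscle, stood at 2292, 2069, 2420 and 1855 CPM in the controls against 675, 582, 728 and 610 CPM in the knockouts. Every knockout library was under every control by a wide margin. The mean fell 3.33-fold, from 2159 ± 249 to 649 ± 65.5 CPM (log2 fold change -1.73, SE 0.12, adjusted p = 1.36e-06), a fold close to the 3.37-fold of Ckm.

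Ampd1 (Entrez Gene 229665, chr3:103074014-103099720) encodes the AMP deaminase of skeletal muscle fibres. It stood at 1559, 1558, 1616 and 1304 CPM in the controls against 316, 314, 370 and 293 CPM in the knockouts, again with no overlap. The mean fell 4.67-fold, from 1509 ± 140 to 323 ± 32.8 CPM (log2 fold change -2.22, SE 0.11, adjusted p = 2.73e-07).

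Ampd3 (Entrez Gene 11717, chr7:110768206-110812409), the deaminase known from red blood cells and found in many tissues, rose. It stood at 11.8, 14.1, 12.3 and 11.7 CPM in the controls, which hardly differed among themselves, and at 44.6, 29.2, 49.6 and 52.0 CPM in the knockouts, where knockout 2 was the lowest. The mean was 12.5 ± 1.11 against 43.8 ± 10.3 CPM (log2 fold change 1.81, SE 0.17, adjusted p = 1.19e-05). None of the red blood cell genes passed the test. The summed red blood cell levels were 96.7, 8.61, 77.6 and 55.8 CPM in knockouts 1 to 4, against 41.1 to 102 CPM in the controls. The part of red blood cells in the rise of Ampd3 was not tested. Of the 75-base windows of its transcripts, 4.17% are shared with Rnf141 or other annotated genes.

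Adssl1 (Entrez Gene 11565, chr12:112620047-112641355), which makes adenylosuccinate from IMP in muscle, had 1229, 1191, 1263 and 1382 CPM in the controls against 572, 605, 612 and 493 CPM in the knockouts. The groups were far apart, and the spread within each was small. The mean fell 2.22-fold, from 1266 ± 82.4 to 571 ± 54.7 CPM (log2 fold change -1.15, SE 0.095, adjusted p = 5.43e-06), the smallest change of the 5 muscle-type enzymes.

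For the 9 genes as a list, 6 were lower where 21.1% of all genes were, and 2 were higher where 23.6% of all genes were, out of 44.7% called in either direction. With library totals alone 5 were lower and 3 higher. Control and knockout values were fully apart for 8 of the 9, beside 53.4% of all genes. The median log2 fold change was -1.15, and that of all genes was 0.065 (-0.49 and 0.73 with library totals alone). Together the 9 genes made up 2.18% ± 0.106 of the counts of a control library and 1.04% ± 0.142 of a knockout library (two-sided exact permutation p = 0.0286).

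To order the genes by level, counts were divided by exon length (RPKM). In the controls Ckm was first at 14897 RPKM, and it was followed by Ak1 at 913 ± 105, Ckmt2 at 883 ± 93.2, Adssl1 at 707 ± 46.0 and Ampd1 at 644 ± 59.6 RPKM. The ranges of 1 SD about Ak1 and Ckmt2 overlapped, as did those about Adssl1 and Ampd1. Far under these came Slc6a8 at 42.5 ± 5.19, Gamt at 26.4 ± 4.44, Ckb at 4.55 ± 0.998 and Ampd3 at 2.92 ± 0.261 RPKM. In the knockouts Ckm was still first at 4427 RPKM, but Adssl1 was next at 319 ± 30.6 RPKM, before Ak1 at 274 ± 27.7, Ckmt2 at 183 ± 20.9 and Ampd1 at 138 ± 14.0 RPKM. The ranges of 1 SD about Adssl1 and Ak1 overlapped, so their new order is not larger than the spread. The same holds for Gamt and Slc6a8, at 32.4 ± 7.09 and 30.8 ± 1.87 RPKM, and for Ampd3 and Ckb, at 10.3 ± 2.40 and 9.81 ± 3.39 RPKM.

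A ratio of 2 genes within a library does not depend on how libraries are scaled. Ratios were therefore compared between the groups with exact permutation tests over the 70 assignments, two-sided and adjusted over 7 ratios. Ckm was 4357, 2715, 4454 and 2293 times Ckb per length in controls 1 to 4 and 554, 317, 940 and 281 times Ckb in knockouts 1 to 4. The groups did not overlap. On the log2 scale of Ckb to Ckm, knockout 3 (-9.81) lay closer to control 4 (-11.1) than to knockout 4 (-8.07). The ratio of Ckb to Ckm thus rose by 2.83 on the log2 scale, 7.12-fold (exact p = 0.0286, adjusted p = 0.0333). Even so, Ckb made up 0.0296% ± 0.00969 of the creatine kinase transcripts per length in the controls and 0.229% ± 0.110 in the knockouts, and Ckm 94.3% ± 0.971 and 95.7% ± 0.818. The mitochondrial form Ckmt2 was 5.52%, 7.41%, 4.87% and 6.23% of Ckm in the controls and 3.48%, 4.96%, 3.64% and 4.86% in the knockouts. Knockout 2 lay above control 3, so the groups overlapped, and the difference of -0.50 on the log2 scale did not pass (exact permutation p = 0.0571).

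The largest shift within a family was that of the AMP deaminases. Ampd1 was 241, 202, 239 and 204 times Ampd3 per length in the controls, and 12.9, 19.6, 13.6 and 10.3 times Ampd3 in the knockouts. The ratio of Ampd3 to Ampd1 therefore rose by 4.01 on the log2 scale, 16.1-fold, and that of Ampd2, the liver-type deaminase, to Ampd1 by 3.01, 8.04-fold (exact permutation p = 0.0286 and adjusted p = 0.0333 for each). Per length, Ampd1 went from 99.3% ± 0.110 of the 3 deaminases to 91.1% ± 1.95, Ampd3 from 0.451% ± 0.0436 to 6.79% ± 1.60 and Ampd2 from 0.291% ± 0.0853 to 2.14% ± 0.539. The muscle form was thus the main deaminase transcript in all 8 libraries. Ampd2 itself was at 7.24 ± 1.48 against 12.5 ± 2.37 CPM (log2 fold change 0.79, SE 0.18, adjusted p = 0.00361), a call lost without control 2, control 3, knockout 1 or knockout 4, with adjusted p up to 0.0147.

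Synthases were compared in the same way. The ratio of Adss, the widely expressed synthase, to Adssl1 rose by 1.38 on the log2 scale, 2.61-fold (exact permutation p = 0.0286, adjusted p = 0.0333). Adss alone did not pass the test (16.9 ± 1.08 against 19.9 ± 1.27 CPM, adjusted p = 0.0326). With library totals alone it did (log2 fold change 0.90, adjusted p = 6.20e-06). Of the other adenylate kinases, Ak6 (log2 fold change -1.31, adjusted p = 2.30e-06) and Ak3, of the mitochondrial matrix (-0.68, adjusted p = 0.00359), were lower, the latter with an adjusted p of 0.0104 without control 2 and a log2 fold change of -0.0091 with library totals alone. Ak4 (0.22, adjusted p = 0.520) and Ak5, at under 1 CPM in each library (1.5, adjusted p = 0.0104), did not pass. Ak5 did pass without control 2 (2.03, adjusted p = 0.00372) and with library totals alone (2.15, adjusted p = 0.000959). It also passed with upper-quartile factors (adjusted p = 0.00972) and with the filter of at least 10 counts in 4 libraries (adjusted p = 0.00922). Ckm to Gamt, set as a ratio of a kinase to a synthesis enzyme, fell by 2.06 on the log2 scale, 4.16-fold (exact permutation p = 0.0286, adjusted p = 0.0333).

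**Figure D2:**
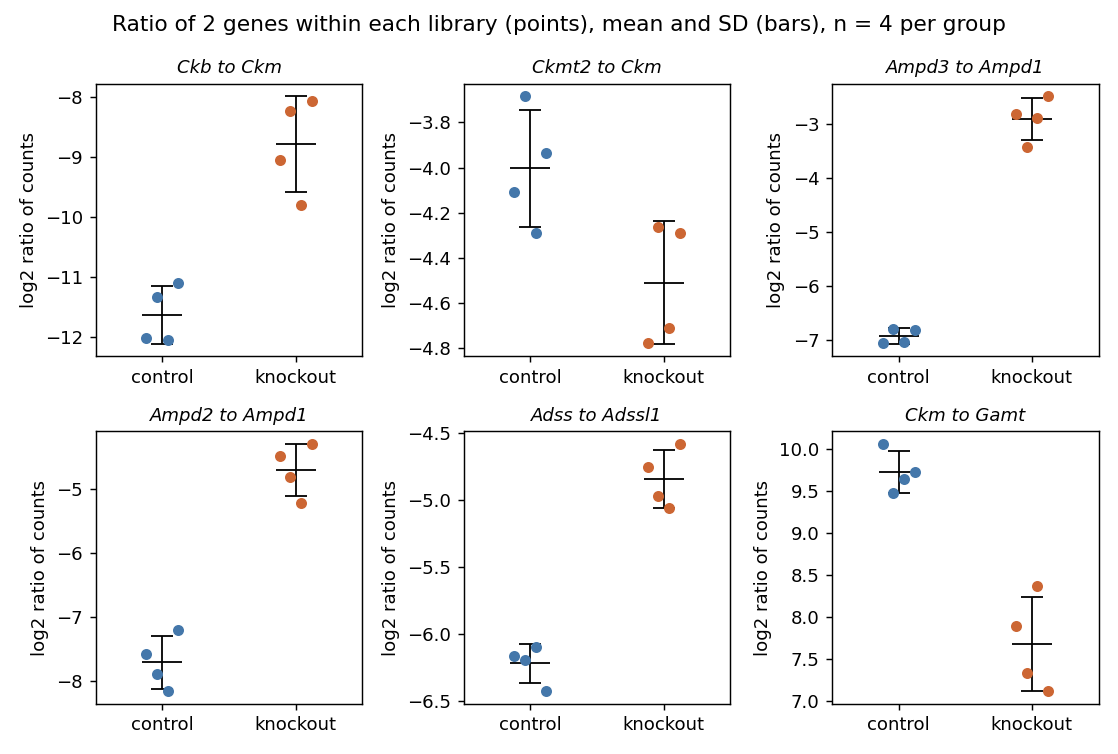
Log2 ratio of counts of 2 genes within each library, 1 point per library, with mean and SD per group (n = 4). In 5 of the 6 panels the groups are apart, with differences from 1.38 to 4.01 in size, and for Ckmt2 to Ckm they overlap.

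**Figure D3:**
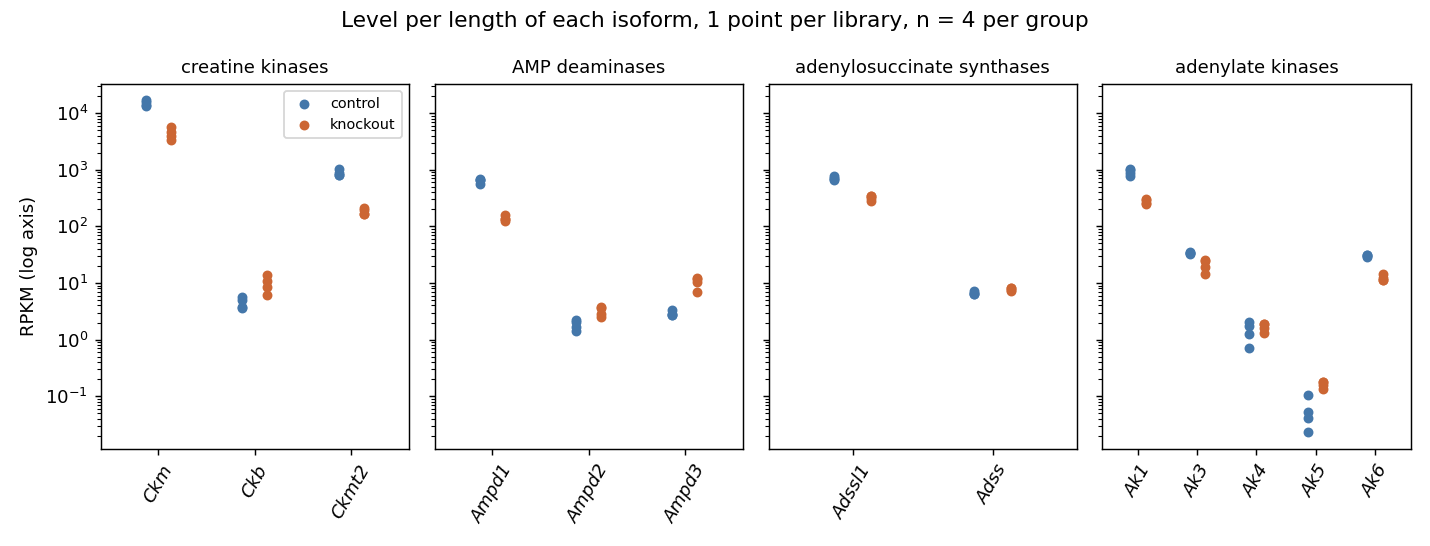
Level per length (RPKM, log axis) of measured creatine kinases, AMP deaminases, adenylosuccinate synthases and adenylate kinases, 1 point per library. Ckm, Ampd1, Adssl1 and Ak1 head their families in both groups. Ckb, Ampd2 and Ampd3 lie higher in the knockouts, and Ckmt2, Ak3 and Ak6 lie lower, of which Ak3 hardly differs with library totals alone (-0.0091).

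The creatine list held 11 genes for synthesis, uptake and kinases, 10 of them measured (Ckmt1 was not analysed here). Of these 3 were higher, 4 lower and 3 did not pass, with a median log2 fold change of 0.30. The counts of this and the next lists, which include the 9 genes, stand beside 23.6% higher and 21.1% lower among all genes, and nothing particular to a list is read from them. Gatm, the first and rate-limiting step of creatine synthesis, was the gene that rose most, from 6.46, 10.9, 11 and 3.53 CPM to 30.8, 45.1, 22.3 and 45.9 CPM. These do not overlap, and the mean of 36.0 ± 11.5 CPM was 4.52-fold that of the controls (log2 fold change 2.18, SE 0.34, adjusted p = 0.000384). Gatm and Gamt, the 2 steps of one pathway, thus did not share a call, although the difference between them was not tested. The third higher gene, Slc6a7, a proline transporter related to Slc6a8, had 2 to 6 counts in control libraries and 14 to 27 in knockout ones (adjusted p = 0.00267) and was named after its values were seen. Its call was lost without control 2 (adjusted p = 0.0106) and with the adipocyte covariate (adjusted p = 0.0101). The lower genes beside Ckm, Ckmt2 and Slc6a8 included the taurine transporter Slc6a6 (log2 fold change -0.76, adjusted p = 4.49e-05), whose call was lost with library totals alone (-0.085).

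In the purine nucleotide cycle 2 of 6 genes were higher (Ampd2 and Ampd3) and 3 lower, with a median of -0.14. The third lower gene, Adsl, the lyase that completes the cycle, stood at 146 ± 7.86 against 102 ± 6.37 CPM (log2 fold change -0.52, adjusted p = 0.000146), and turned to 0.15 with library totals alone. Among 15 adenylate and related nucleoside kinases 4 were higher and 3 lower (median 0.22). Of these, the nucleoside diphosphate kinases Nme4 (log2 fold change 1.59, adjusted p = 0.000601, at 1.05 against 3.17 CPM) and Nme2 (0.79, adjusted p = 1.17e-05) rose.

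AMP can also leave the pool by dephosphorylation. Of 15 nucleotidase and purine breakdown genes 4 were higher, 3 lower and 8 not past the threshold (median 0.24). The cytosolic AMP nucleotidase of muscle, Nt5c1a, fell furthest of all genes in these lists. It stood at 18.7, 15.0, 19.5 and 14.1 CPM in the controls against 1.25, 1.33, 1.78 and 1.07 CPM in the knockouts, 12.4-fold lower on the means (log2 fold change -3.62, SE 0.18, adjusted p = 3.16e-07). The other genes named from this list of nucleotidases and purine breakdown went both ways. Nt5c2, which prefers IMP and GMP, rose by 1.82 on the log2 scale (adjusted p = 9.68e-06), Nt5c by 1.38 and the nucleoside diphosphatase gene Entpd5 by 1.18, while Adal had a log2 fold change of -0.93 and Nt5c3 of -0.38. Nt5c3 turned to 0.28 with library totals alone and lost its call without control 1, knockout 1, knockout 2 or knockout 4, with adjusted p up to 0.0147.

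The salvage list of 9 genes had 2 higher, 1 lower and 6 not past the threshold (median -0.034). Hprt, which remakes IMP and GMP from free bases, rose evenly from 21.9 ± 0.540 to 44.1 ± 2.86 CPM (log2 fold change 1.01, adjusted p = 1.36e-06), and Aprt rose less (0.62, adjusted p = 0.00501, and up to 0.0213 without control 1, knockout 3 or knockout 4). Adk, which phosphorylates adenosine to AMP, fell from 61.3 ± 8.32 to 29.2 ± 1.07 CPM (-1.07, adjusted p = 8.80e-06). In de novo purine synthesis 5 of 15 genes were higher and 4 lower (median 0.23). The IMP dehydrogenases, which lead from IMP to guanine nucleotides, rose (Impdh1 by 1.47 and Impdh2 by 0.93 on the log2 scale), as did Prpsap1 by 1.29, whereas Gmpr, which returns GMP to IMP, fell by 1.66. The first committed enzyme, Ppat, had a log2 fold change of -0.82 (-0.15 and not past the threshold with library totals alone), and Paics of -0.60, which turned to 0.076 with library totals alone.

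AMP-activated protein kinase senses the AMP and ADP that these enzymes set. All 11 genes of its subunits and upstream kinases passed the test, 4 higher and 7 lower (median -0.63). The subunits abundant in muscle were lower. Prkab2 went from 686 ± 169 to 125 ± 29.8 CPM (log2 fold change -2.46, adjusted p = 7.17e-06), Prkag3 had a log2 fold change of -1.73 and Prkaa2 of -1.02. Their widely expressed partners Prkab1 (1.05, adjusted p = 5.42e-06) and Prkaa1 (0.50, adjusted p = 0.000400) were higher. The widely expressed γ subunits, named after their values were seen, went the other way with TMM scaling. Prkag1 was at 49.5 ± 4.19 against 38.7 ± 2.16 CPM (-0.36, adjusted p = 0.00277, and 0.31 with library totals alone). Prkag2 was at 25.6 ± 0.661 against 15.2 ± 4.84 CPM (-0.75, adjusted p = 0.00618, and -0.079 and not past the threshold with library totals alone). Prkag1 lost its call without control 2 (adjusted p = 0.0103) and with the adipocyte covariate (adjusted p = 0.0109). Prkag2 lost its call without any control, knockout 2 or knockout 4 (up to 0.0155). Camkk2 (0.63, adjusted p = 0.00986) lost its call without any of 6 of the 8 libraries, control 1 and knockout 3 being the exceptions, with adjusted p up to 0.0288.

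The list of adenine nucleotide translocators, related carriers and outer membrane channels had 5 of 10 genes lower and 2 higher (median -0.41). The translocator of heart and muscle, Slc25a4, stood at 3962 ± 336 against 1446 ± 116 CPM (log2 fold change -1.45, adjusted p = 2.37e-06), and its counterpart of proliferating and other cells, Slc25a5, at 41.6 ± 5.0 against 133 ± 14.4 CPM (1.68, adjusted p = 1.26e-06). The ATP-Mg/phosphate carriers also parted, with Slc25a24 higher (1.79) and Slc25a25 lower (-2.39), and the outer membrane channel Vdac1 was lower (-0.98). Over all 8 lists together 26 of 90 genes measured were higher (28.9%, beside 23.6% of all genes) and 29 lower (32.2%, beside 21.1%), with a median of 0.13. With library totals alone 52 were higher and 16 lower.

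**Figure D4:**
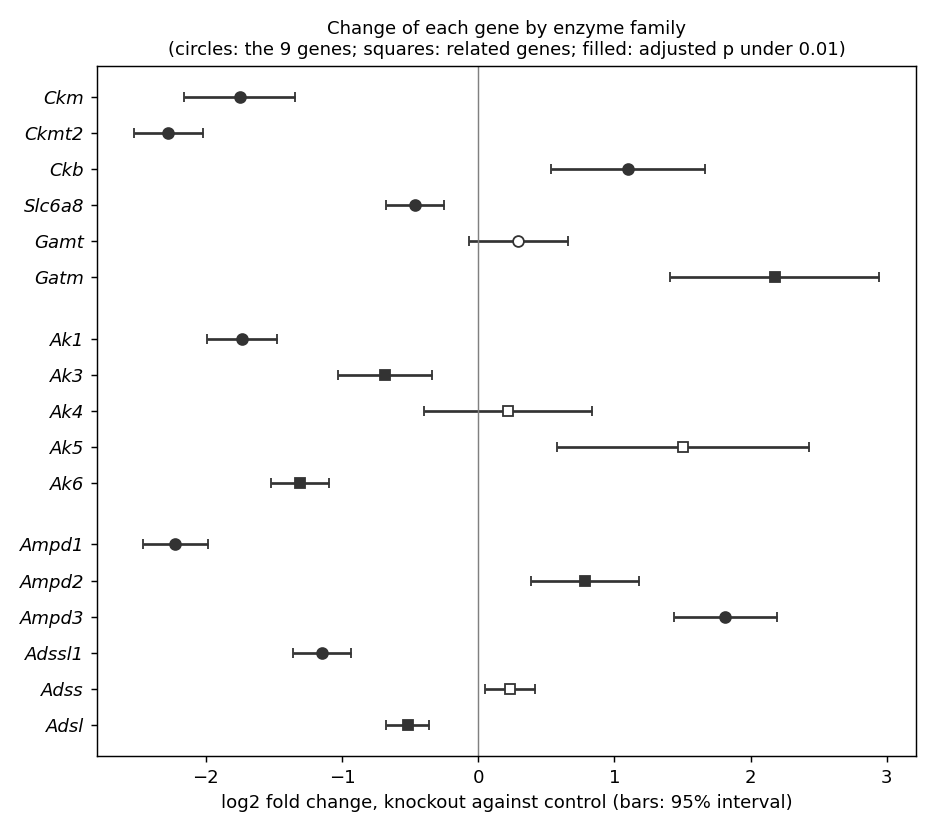
Log2 fold change of the 9 genes (circles) and of related genes (squares) with 95% intervals from edgeR's fit, filled where the adjusted p was under 0.01. Ckmt2 and Ampd1 lie lowest, at -2.27 and -2.22, and Gatm and Ampd3 highest, at 2.18 and 1.81. The signs of Slc6a8 and Adsl turn with library totals alone, and that of Ak4 without control 4.

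**Figure D5:**
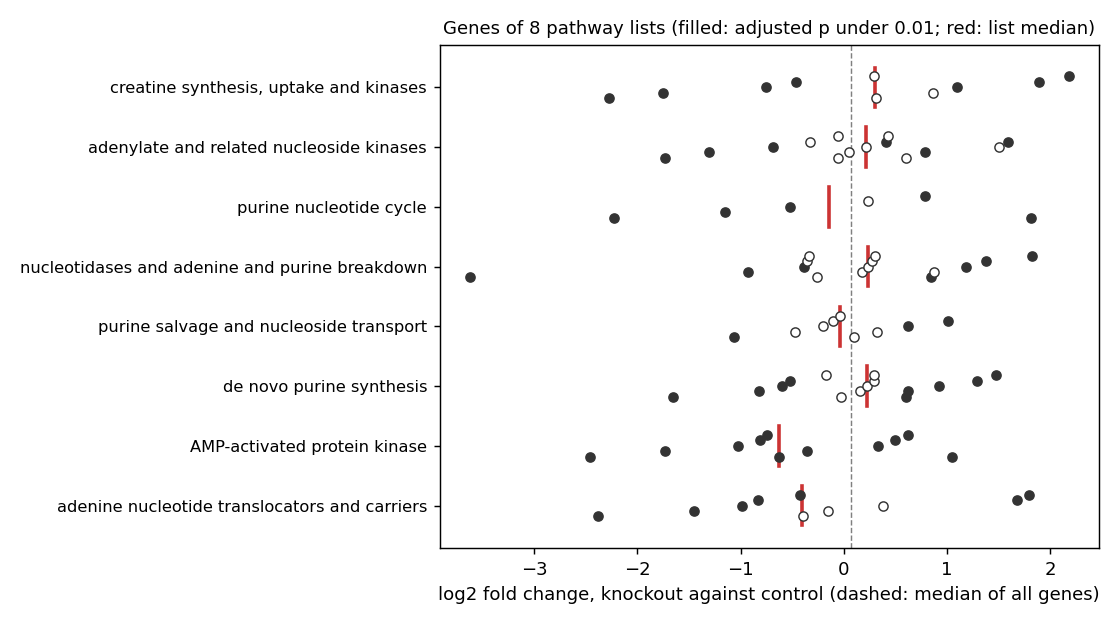
Log2 fold change of the measured genes of 8 lists, 1 gene left out, filled where the adjusted p was under 0.01, with the median of each list as a red line and that of all 14012 genes as a dashed line. Filled points stand on both sides of 0 in every list, and the list medians lie between -0.63 and 0.30.

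For 4 of the 9 genes the genes most alike in profile were taken as those with the smallest root mean square difference in log2 CPM, each profile centred on its mean, over the 8 libraries, among 8042 genes with a mean of at least 10 CPM. These distances are descriptions, and points share libraries and group. For Ckm these were Rpl3l (0.074), Klhl21 (0.081) and Myoz1 (0.089), and for Ampd1 Actn3 (0.10), Pygm (0.10) and Pgam2 (0.11). Ampd3 lay closest to Nnt (0.091), Srxn1 (0.11) and Hmgn2 (0.12). Distances were larger for Ckb, with Cdkn1c (0.18), Tubb2a (0.23) and Cspg4 (0.24), of which Cspg4 is also in the smooth muscle and pericyte list.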

How the data were processed

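Polyadenylated RNA of QF muscle was sequenced as read pairs from strand-specific libraries (NEBNext Ultra II Directional kit). For the deposited table of raw counts the authors used bcl2fastq 2.20.0.422 and cutadapt, mapped with STAR 2.5.4b to GRCm38 and counted on exons with Rsubread, after removal of duplicate, chimeric, multimapping and poorly mapped pairs and of genes with few reads (the lowest kept total is 51). The annotation release and the use of strand in counting are not given in the sources used here. The authors' FPKM values rest on the same counts and the deposited exon width, another column, and were used only for ratios and level orders. The authors' DESeq2 columns (mean, log2 fold changes, their errors and p-values) were not used.

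Counts were tested with edgeR 4.0.16 (R 4.3.3, limma 3.58.1): TMM scaling, glmQLFit and glmQLFTest, group as the only term, all 14012 genes, Benjamini-Hochberg adjustment, called at an adjusted p under 0.01. CPM uses TMM-scaled library sizes, log2 CPM a prior count of 2, and ratios an offset of 0.5 counts. Fold is the ratio of mean CPM, and RPKM is CPM per kilobase of exon. The biological coefficient of variation was 0.157. Depth was 16017565 to 20361144 counts per library. That the libraries are separate mice rests on the labels. The procedure was run on simulated counts in which few genes changed, as many up as down. That setting is unlike these data, so it does not test the scaling where TMM factors separate the groups.

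Results of 1 gene related to the 9, and of the ratio and shares that need it, are not reported here. The members, lists and tests were chosen with earlier results of these data known. Genes named are the 9, their enzyme families with Gatm, up to 3 higher and 3 lower genes of each other list with the largest log2 fold change among those called with a mean of at least 50 counts in the higher group, and for 4 of the 9 genes the 3 most alike genes with at least 10 CPM. Alternatives covered scaling, filters (at least 10 counts in 4 libraries, and filterByExpr), DESeq2 1.42.0, robust estimation, the threshold (0.05), an adipocyte covariate, the replicate number as a block and each library left out in turn.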

Additional observations from a re-analysis of the deposited data

How the results depend on the processing

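The calls of Ckm, Ckmt2, Ak1, Ampd1, Ampd3 and Adssl1 held under each of 18 alternatives. The number of the 9 genes called higher was 1 with the adipocyte covariate, where Ckb was lost, and 1 to 2 when libraries were left out in turn. Scaling by library totals alone moved the all-gene median of the log2 fold change from 0.065 to 0.73, and it gave 16 lower and 52 higher genes over the 8 lists (29 and 26 with TMM) and 873 lower and 8498 higher genes in all (2962 and 3303 with TMM). With it Slc6a8 (0.20), Adsl (0.15), Nt5c3 (0.28), Paics (0.076) and Prkag1 (0.31) changed sign. Single lists moved with it too, to 2 lower for creatine, 1 lower and 11 higher for de novo synthesis, 3 lower for AMP-activated protein kinase, 3 lower and 4 higher for carriers, and 10, 9 and 6 higher for nucleoside kinases, nucleotidases and salvage. Elsewhere, 2 genes of the AMP-activated protein kinase list were higher with RLE factors and with the adipocyte covariate. The same number was higher without control 2, control 3, knockout 1 or knockout 2. With the adipocyte covariate 1 creatine gene was higher. At a threshold of 0.05 there were 7 nucleoside kinases higher and 5 genes of the nucleotidase and purine breakdown list lower. In some fits 1 gene of the purine nucleotide cycle was higher where Ampd2 was lost, and salvage had 2 genes lower or 1 higher. Ak4 ranged from -0.013 (without control replicate 4) to 0.45 with libraries left out in turn. With a replicate block, labels are exchanged only within 4 pairs and the exact p of a ratio cannot go under 0.125, the value reached by Ckb to Ckm (2.83), Ampd3 to Ampd1 (4.01), Ampd2 to Ampd1 (3.01), Adss to Adssl1 (1.38) and Ckm to Gamt (-2.06). The deviations of libraries with the same number correlated at 0.118, 0.0031, 0.42 and 0.138, so not every pair passed 0.1 and the numbers were not taken to pair the libraries. Libraries 1, 3 and 4 of each group did match best with their own number, and those numbered 2 did not. Under the block 6 of the 9 genes were lower and 2 higher, as without it, and among the genes named Aprt lost its call (adjusted p = 0.0112). With 1 library left out the exact tests of the ratios cannot go under 0.0571. Counts in the controls were low for Ckb (67 to 134), and lower still for Slc6a7 (2 to 6), among other genes.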
